A study of Mus musculus with 3 samples.

Results

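Interferon-stimulated genes are described here across 3 RNA libraries of selected mouse dural cells. The members are 39 genes taken from a given list by symbol, and all 39 were found among the 54532 genes of the files. The study concerned meningeal lymphatic vessels in a model of dural metastasis, made by inoculating mice with 4T1-DM cells (4T1 is a mouse mammary carcinoma line). Dura, the outer membrane of the brain, was collected on day 12, and cells lacking CD45 (a leukocyte protein) and carrying CD31 (endothelial) and podoplanin were profiled. All mice bore 4T1-DM cells. The groups were PBS, ZOL and ZOL+Ang2, with 6 mice pooled into 1 library each. The labels do not spell out ZOL or Ang2. No group without tumour cells was analysed here, and strain and age are not stated in the labels. With 1 library per group there were no replicates and no test, so each value describes a library and not the spread between animals. Where a gene has 3 values in a row, they are given in the order PBS, ZOL, ZOL+Ang2.

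Interferons are secreted proteins that put cells into an antiviral state. Type I and type III interferons bind receptors on most cells or on epithelia and lead to a complex that holds STAT2 and IRF9 and binds an element called the ISRE. Interferon gamma (type II) acts through an element called GAS and through the factor IRF1. The genes so induced encode sensors of viral RNA and DNA, enzymes that stop translation or degrade RNA, GTPases that attack pathogen-containing vacuoles, and the signalling factors themselves. Endothelium, fibroblasts, macrophages and carcinoma cells can all express them.

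Promoter sequences were read to see which of the elements lie before the members' starts. RefSeq sequences (build GRCm38.p6, the assembly called mm10) were held for 31 of the 39 members. Searches covered the 250 bases before each start, on both strands, for the ISRE core (GAAA, any 2 bases, then GAAA again, or on the other strand TTTC, any 2 bases, TTTC) and for GAS, TTCNNNGAA, which reads the same on both strands. Matches of the motifs may overlap each other. The ISRE core was found in 15 of 31 members (48.4%) and in 3.46% of all 27025 genes with a sequence. GAS was found in 9 of 31 (29.0%) and in 8.13% of all genes, and both were found in 5 of 31 against 0.459%. In 12 members neither string was present, which says only that these letters are not in this window. The sequences below were picked from members with a mean of at least 10 CPM (reads scaled to a common library size), as those with the highest and the lowest ratio of ZOL+Ang2 to ZOL among holders of the ISRE core (Ifit1 and Gbp3) and of GAS (Bst2 and Gbp7). Gbp5, which holds both motifs, had a higher ratio than Bst2 but lay below that mean. They are written 5′ to 3′ on the gene's strand and end at the base before the RefSeq start, and capitals mark the matches.
Ifit1 (chr19:34640639-34640888, plus strand): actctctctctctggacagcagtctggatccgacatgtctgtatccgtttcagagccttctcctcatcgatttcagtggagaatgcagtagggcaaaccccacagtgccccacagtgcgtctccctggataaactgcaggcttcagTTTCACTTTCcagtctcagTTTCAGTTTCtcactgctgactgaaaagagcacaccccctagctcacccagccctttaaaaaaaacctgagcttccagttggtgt
Gbp3 (chr3:142559794-142560043, plus strand): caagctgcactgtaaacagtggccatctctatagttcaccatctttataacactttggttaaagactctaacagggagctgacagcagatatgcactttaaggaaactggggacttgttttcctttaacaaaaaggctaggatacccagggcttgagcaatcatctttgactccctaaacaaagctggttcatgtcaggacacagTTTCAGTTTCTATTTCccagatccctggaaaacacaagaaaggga
Gbp7 (chr3:142530086-142530335, plus strand): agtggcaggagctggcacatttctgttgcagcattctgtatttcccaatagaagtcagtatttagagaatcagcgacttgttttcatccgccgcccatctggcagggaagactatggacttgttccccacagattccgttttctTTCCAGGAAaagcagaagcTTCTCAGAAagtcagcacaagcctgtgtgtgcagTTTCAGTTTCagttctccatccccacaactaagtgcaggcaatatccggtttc
Bst2 (chr8:71537473-71537722, minus strand): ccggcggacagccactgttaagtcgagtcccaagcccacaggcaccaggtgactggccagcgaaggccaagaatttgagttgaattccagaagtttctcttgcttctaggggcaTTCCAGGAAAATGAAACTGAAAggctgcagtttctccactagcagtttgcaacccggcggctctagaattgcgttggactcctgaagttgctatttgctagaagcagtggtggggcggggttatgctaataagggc
Ifit1 holds 2 ISRE cores, which begin 104 and 85 bases before the start. In Gbp3 the 2 ISRE cores overlap, beginning 45 and 39 bases before it. Gbp7 holds GAS matches at 106 and 87 bases and an ISRE core at 53. In Bst2 a GAS match at 136 bases runs into ISRE cores at 130 and 124.

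**Figure D1:**
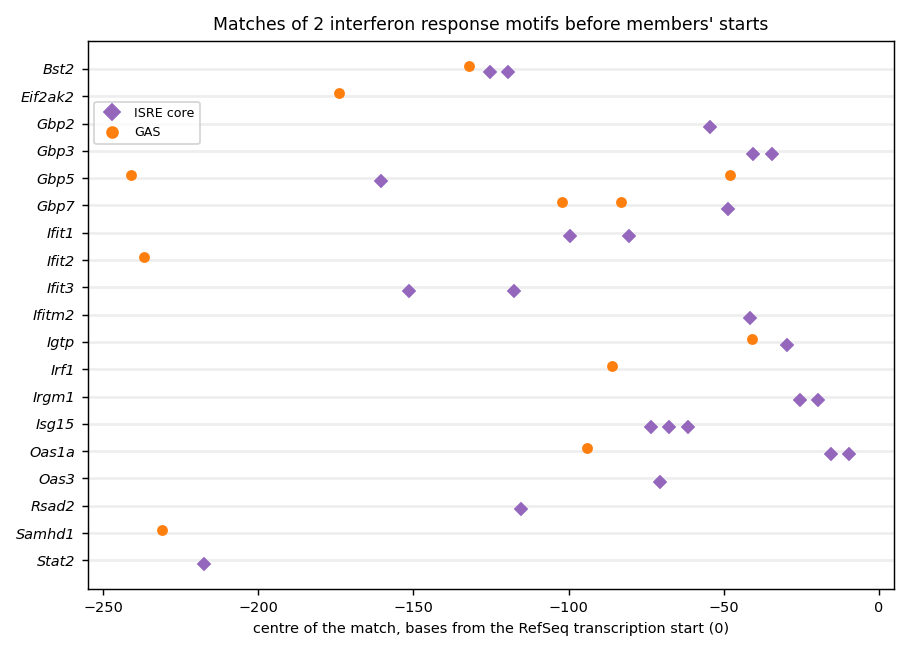
Each row is a member with at least 1 match, 19 genes in all, and the horizontal axis gives the centre of each match in bases from the RefSeq transcription start. Diamonds are ISRE cores and circles are GAS matches, and most ISRE cores lie in the part of the window nearer to the start.

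Members with and without a motif had similar shares that were lower in ZOL+Ang2 than in ZOL. Among members with a sequence and a mean of at least 10 CPM, 5 of 12 with the ISRE core were at least 2-fold lower in ZOL+Ang2 and 1 was higher. Without it these were 6 and 1 of 16. For GAS, 3 of 8 with the motif and 8 of 20 without it were lower, and 0 and 2 were higher. The median log2 ratio was -0.39 with GAS and -0.92 without it. For the ISRE core the medians were -0.72 and -0.81. These sets are small, and the differences between them were not tested.

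The libraries differed in depth and make-up. Reads recovered from the deposited values numbered 1675532, 16586760 and 9204901 in the order above, so PBS was the least precise and counting intervals cover counting error only. Mitochondrially encoded, ribosomal RNA, satellite-type and chemoreceptor gene models together took 38.6%, 9.38% and 13.0% of these reads. In PBS 785 (18.8%) of the 4175 genes with at least 50 CPM in ZOL had no reads, against 189 (4.53%) in ZOL+Ang2. The reverse was also common. Of the 3216 genes with at least 50 CPM in PBS, 594 (18.5%) had no reads in ZOL and 752 (23.4%) none in ZOL+Ang2. PBS therefore stood apart, and a gene at 0 reads in any of the libraries need not have been silent. Of the markers behind the cell selection, Pecam1 (CD31) stood at 1.08, 475 and 177 CPM and Pdpn (podoplanin) at 18.8, 67.5 and 171. Ptprc (CD45) was present at 156, 25.1 and 76.1 CPM. Of the other lymphatic genes listed, Lyve1 had no reads in any library and Prox1 had 2 reads in PBS and none elsewhere. Flt4 (the receptor VEGFR3) stood at 0.54, 70.9 and 23.8 CPM, Ccl21a at 0, 11.1 and 3.88, Mmrn1 at 155, 11.5 and 12.0 and Reln at 99.6, 8.6 and 7.87. The defining markers were thus split, with some absent and others highest in different libraries. All libraries are bulk RNA, in which fewer cells of a type and less RNA per cell cannot be told apart.

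Transcripts of the members were found in every library, with reads on 33 in PBS and on 36 in either treated library. Their median level was 5.92, 83.5 and 51.5 CPM. In PBS 12 members had only 1 to 9 reads, against none in ZOL and 1 in ZOL+Ang2. Of the 35 members whose mean over the libraries reached 10 CPM, 27 were highest in ZOL on CPM, 5 in ZOL+Ang2 and 3 in PBS. Over all 10942 genes that passed the same filter the split on CPM was close to even, at 35.9%, 30.1% and 34.0%. The split depends on the unit. On deposited RPKM Ifit3, Trim25, Irf1, Iigp1, Ifitm3 and Mx2 moved from highest in ZOL to highest in PBS. Ifit1, Isg15 and Bst2 moved there from ZOL+Ang2, and Zbp1 became highest in ZOL+Ang2. The split of all genes on RPKM is not given. Oas3, Gbp5, Mx1 and Rsad2 did not pass.

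Per length, Ifitm3 led the members in each library. Ifitm3 (chromosome 7, 141009586 to 141010770) encodes a membrane protein that blocks viral fusion in endosomes. Its deposited level was 1598 RPKM (reads scaled by exon length and library size) in PBS, 1165 RPKM in ZOL and 976 RPKM in ZOL+Ang2. It held 68.7%, 51.7% and 54.2% of the summed RPKM of the members and was the 23rd, 18th and 33rd highest gene of each library. The order behind it differed. In PBS the next were Bst2 (104 RPKM), Iigp1 (74.4), Irf1 (72.3) and Ifit1 (66.2). In ZOL they were Gbp2 (190), Igtp (127), Ifitm2 (112) and Bst2 (79.8). ZOL+Ang2 had Ifitm2 (183), Igtp (97.2), Bst2 (92.1) and Gbp2 (77.1) in these places. The GTPase genes Gbp2 and Igtp thus came next after Ifitm3 in ZOL. In ZOL+Ang2 Ifitm2, Igtp and Bst2 came before Gbp2, and Ifitm1 (57.4 RPKM) came after it.

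**Figure D2:**
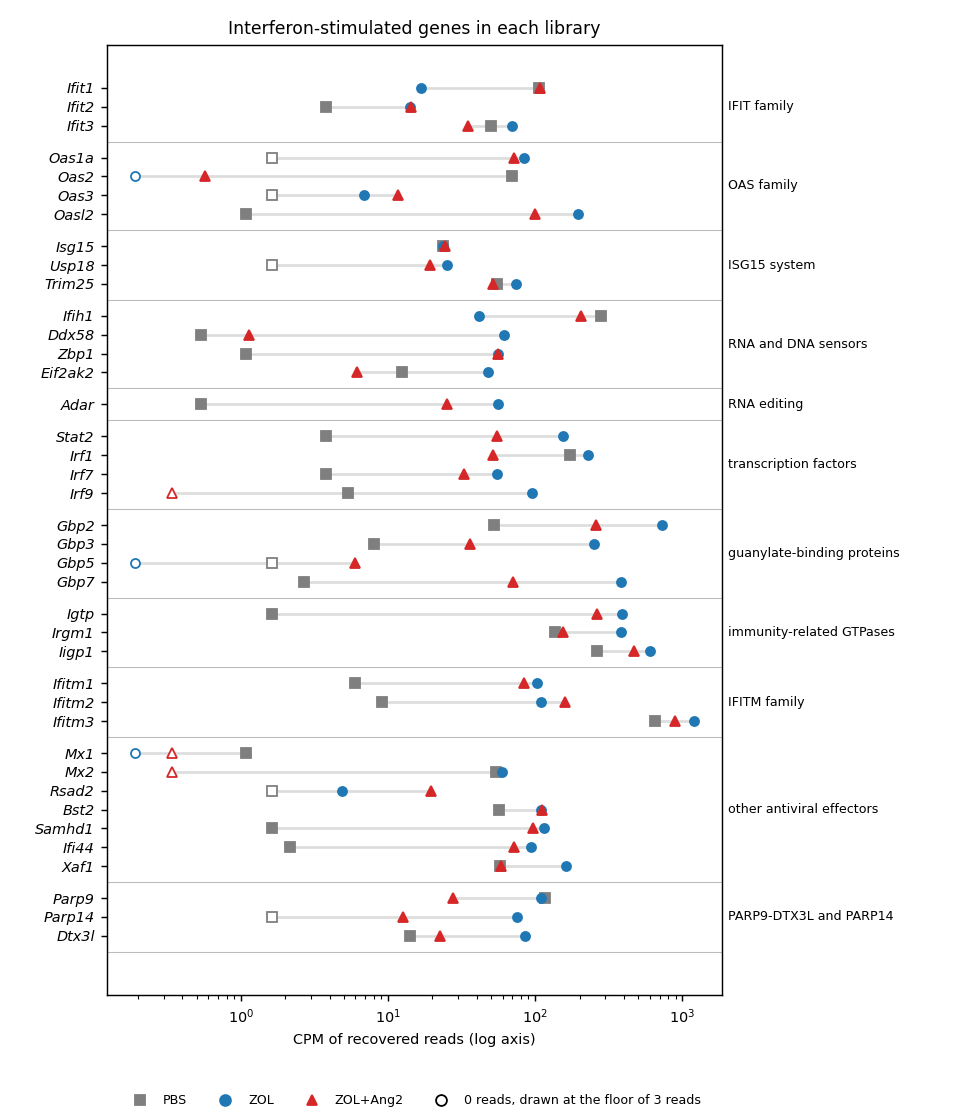
Each row is a member, grouped by role, and the horizontal axis is CPM on a log scale. Squares are PBS, circles ZOL and triangles ZOL+Ang2, and open symbols mark 0 reads, drawn at the floor of 3 reads (1.61, 0.191 and 0.342 CPM). Ifit1 and Ifih1 are lowest in ZOL, whereas the guanylate-binding genes Gbp2, Gbp3 and Gbp7 are highest there.

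The addition of Ang2 to ZOL was examined by setting ZOL+Ang2 beside ZOL. Ifit1 and Ifih1 were higher in ZOL+Ang2. The guanylate-binding genes, the PARP9-DTX3L group, the factors Stat2, Irf1 and Irf9, and the sensors Ddx58 and Eif2ak2 were lower, while the OAS, IFITM and ISG15 genes that passed the filter were not past 2-fold by the rule used. A gene was counted as higher or lower where its ratio passed 2-fold after 5 CPM was added to each library as a prior. Of the 35 members past the filter, 14 were lower, against 24.9% of all genes, and 2 (5.71%) were higher, against 16.2%. Their median log2 ratio was -0.68, and that of all genes was -0.02. Since a gene can pass the filter through a high value in a single library, the count was repeated over genes with at least 10 CPM in both libraries. There 10 of 30 members (33.3%) were lower against 15.5% of all genes, and 2 (6.67%) were higher against 14.7%. All 14 lower and 2 higher calls remained under each alternative scaling, prior and unit and under each filter that the gene passed, and also with PBS left out of the scaling and filter.

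**Figure D3:**
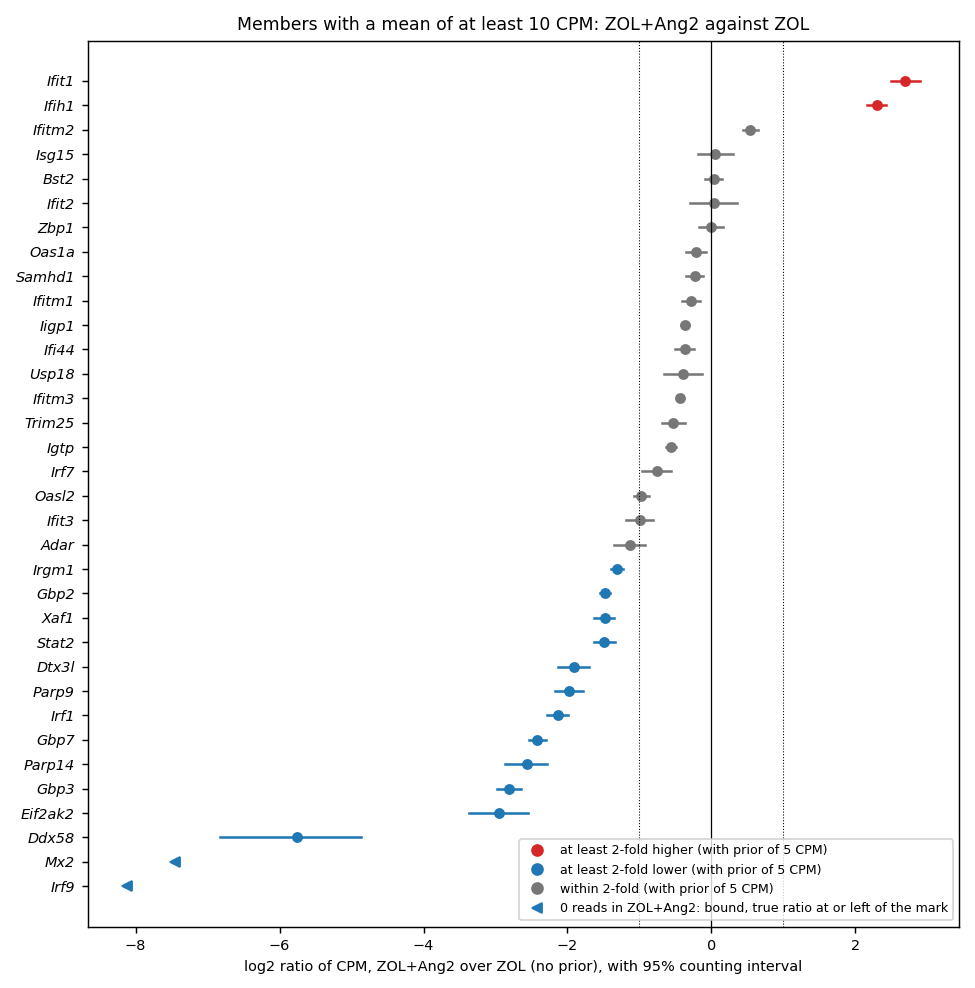
Points are the log2 ratio of CPM in ZOL+Ang2 over ZOL for 34 members, without a prior, and bars are 95% counting intervals (Oas2, with 0 reads in ZOL and 5 in ZOL+Ang2, is not drawn). Dotted lines mark 2-fold. Ifit1 and Ifih1 lie past 2-fold on the right, and Irf9 and Mx2, with 0 reads in ZOL+Ang2, are drawn as bounds.

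The RNA sensors went in opposite directions. Ifih1 (chromosome 2, 62595798 to 62646255) encodes MDA5, which detects long double-stranded RNA. It stood at 281, 41.5 and 204 CPM. ZOL was the low library, and Ifih1 was 4.91-fold higher in ZOL+Ang2 than in ZOL (95% counting interval 4.48 to 5.38). Ddx58 (chromosome 4, 40203773 to 40239828) encodes RIG-I, a related helicase that detects uncapped RNA ends. It had 1 read in PBS, 968 reads (61.7 CPM) in ZOL and 10 reads (1.14 CPM) in ZOL+Ang2. Ddx58 was therefore high in ZOL alone, and 54.1-fold lower in ZOL+Ang2 (29.3 to 113). The kinase PKR, which stops translation on binding double-stranded RNA, is the product of Eif2ak2. That gene stood at 12.4, 47.5 and 6.16 CPM and was 7.72-fold lower in ZOL+Ang2 than in ZOL (5.85 to 10.4). Zbp1, a sensor of Z-form nucleic acid, did not differ by 2-fold, at 1.08, 55.7 and 55.5 CPM. Adar, the editor that converts adenosine to inosine in double-stranded RNA, stood at 0.54 (1 read), 55.5 and 25.3 CPM. Its ratio without the prior was 2.19-fold lower (1.89 to 2.55), and with the prior it lay just within 2-fold.

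Among the factors that act on interferon genes, 3 of 4 were lower in ZOL+Ang2, beside 24.9% of all genes. Stat2, a part of the ISRE-binding complex, stood at 3.77, 154 and 55.0 CPM, 2.81-fold lower than in ZOL (2.54 to 3.10). Irf9 (chromosome 14, 55603571 to 55610030), the DNA-binding part of the same complex, stood at 5.38 CPM, 94.9 CPM and 0 reads. Against a floor of 3 reads Irf9 was at least 277-fold lower in ZOL+Ang2. Its exons overlap those of Rnf31 on the same strand by 123 bases, and Rnf31 also went from 435 reads in ZOL to 0 in ZOL+Ang2. Irf1 (chromosome 11, 53770014 to 53778374), the factor most tied to interferon gamma, stood at 173, 228 and 51.9 CPM. PBS and ZOL were both well above ZOL+Ang2, which was 4.39-fold below ZOL (3.99 to 4.86). Irf7, which amplifies type I interferon, stood at 3.77 (7 reads), 55.2 and 32.6 CPM, and ZOL+Ang2 lay within 2-fold of ZOL.

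Guanylate-binding proteins are GTPases that coat and break vacuoles holding pathogens. Of the 4 members, which lie together on chromosome 3 (142493978 to 142638008), Gbp2, Gbp3 and Gbp7 passed the filter and each was lower in ZOL+Ang2. Gbp2 stood at 52.7, 723 and 260 CPM (2.78-fold lower than in ZOL, 2.66 to 2.91). Gbp3 stood at 8.07, 253 and 36.1 CPM, 6.995-fold lower (6.24 to 7.87). Gbp7 followed the same order at 2.69, 380 and 71.0 CPM, 5.35-fold lower (4.93 to 5.82). ZOL was the high library for each of these genes. Gbp5 went the other way at a low level, with 0 reads in PBS and ZOL and 52 reads (5.93 CPM) in ZOL+Ang2, at least 31.0-fold higher against the floor. Gbp3 and Gbp7 share stretches of 50 bases (3.75% and 2.24% of their own), so a few reads could be split between them.

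The immunity-related GTPases, a mouse family of similar function, differed less. Irgm1, which regulates the others, stood at 137, 383 and 154 CPM, 2.48-fold lower than in ZOL (2.34 to 2.63). Igtp, another regulator, stood at 1.61, 387 and 263 CPM, and the effector Iigp1 at 261, 603 and 468 CPM. Both lay within 2-fold between ZOL+Ang2 and ZOL. The reads of Iigp1 are approximate because its values were not whole multiples of a read at the exon length used. Exons of Igtp and its neighbour Irgm2 overlap by 162 bases.

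Parp9, Dtx3l and Parp14 lie within 140 kb on chromosome 16 (35832874 to 35972605) and were lower together. PARP9 and the ubiquitin ligase DTX3L act as a complex, and PARP14 attaches ADP-ribose to proteins. Parp9 stood at 117, 109 and 27.6 CPM (3.94-fold lower than in ZOL, 3.44 to 4.52). Dtx3l stood at 14.0, 85.5 and 22.7 CPM, 3.77-fold lower (3.24 to 4.39). Parp14 had 0 reads, 75.1 CPM and 12.7 CPM, 5.93-fold lower (4.88 to 7.28). ZOL+Ang2 lay below ZOL for each gene, while on CPM PBS was level with ZOL for Parp9 and below it for the others. On deposited RPKM Parp9 was higher in PBS than in ZOL, at 39.9 against 14.8. The exons of Parp9 and Dtx3l overlap by 367 bases on opposite strands, and no strand setting for the counting is named in the labels.

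The IFIT genes, whose products bind foreign RNA, did not move together. Ifit1 (chromosome 19, 34640871 to 34650009) stood at 106, 16.8 and 108 CPM. On CPM PBS and ZOL+Ang2 were level and ZOL was low, 6.47-fold below ZOL+Ang2 (5.63 to 7.44). On deposited RPKM PBS was higher than ZOL+Ang2, at 66.2 against 30.5. Ifit2 stood at 3.77, 14.1 and 14.4 CPM, and ZOL and ZOL+Ang2 did not differ by more than the counting error. Ifit3 stood at 50.1, 69.9 and 35.1 CPM, within 2-fold with the prior. It shares 51.2% of its 50-base stretches with the copy Ifit3b, so the counts of both are uncertain. Ifit3b had 145, 34.1 and 0.114 CPM, and the copies together had 195, 104 and 35.2 CPM.

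OAS enzymes make oligoadenylates that activate an RNA-degrading nuclease. Oas1a had 0 reads, 83.5 CPM and 72.3 CPM. With Oas1g, the copy that shares 57.6% of its stretches, the sums were 0, 127 and 72.4 CPM. Oasl2, an OAS-like member, had 2 reads in PBS and stood at 195 and 99.2 CPM, 1.96-fold lower in ZOL+Ang2 (1.82 to 2.12). Oas3 was low in each library, at 0 reads, 6.82 CPM and 11.6 CPM. Oas2 was found almost only in PBS, with 129 reads (69.4 CPM) there, 0 reads in ZOL and 5 reads in ZOL+Ang2. With the prior, the members of the family that passed the filter lay within 2-fold between ZOL and ZOL+Ang2. Without it, the 5 reads of Oas2 in ZOL+Ang2 stood 2.98-fold above the floor of 3 reads in ZOL. The counting error of those 5 reads is not in that value.

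Members of the ISG15 and IFITM groups were close between ZOL and ZOL+Ang2. Isg15, a ubiquitin-like modifier and a common marker of interferon exposure, stood at 23.7, 23.6 and 24.5 CPM. Usp18, which removes ISG15 and damps the type I receptor, had 0 reads, 25.1 CPM and 19.2 CPM. Trim25, a ubiquitin ligase that acts on RIG-I, stood at 54.9, 74.5 and 51.5 CPM. On CPM Isg15 was the member closest to equal over all 3 libraries. On deposited RPKM Isg15 was highest in PBS, at 52.0, 20.7 and 24.2. Ifitm1 stood at 5.92, 102 and 83.9 CPM, Ifitm2 at 9.15, 110 and 160 CPM, and Ifitm3 at 653, 1192 and 885 CPM. PBS was thus the lowest library for Ifitm3 on CPM but the highest on deposited RPKM (1598, 1165 and 976). Ifitm2 was the only IFITM gene above its ZOL level in ZOL+Ang2, and it shares 48.5% of its stretches with other genes, among them Ifitm3 and unnamed gene models.

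The other antiviral genes ranged from equal levels to a loss of all reads. Mx2, a dynamin-like GTPase, stood at 54.4 CPM in PBS and 59.7 CPM in ZOL and had 0 reads in ZOL+Ang2, at least 174.5-fold lower than in ZOL. Its relative Mx1 had 2 reads in PBS and none elsewhere. Xaf1, which promotes apoptosis by binding XIAP, stood at 57.6, 163 and 58.1 CPM, 2.80-fold lower in ZOL+Ang2 than in ZOL (2.54 to 3.08). On CPM PBS and ZOL+Ang2 were level for Xaf1 and ZOL was higher, whereas its deposited RPKM were 20.4, 23.0 and 9.27. Bst2, the tetherin that holds virus at the cell surface, stood at 56.5, 109 and 111 CPM. Samhd1, which depletes nucleotides, stood at 1.61, 114 and 96.9 CPM, and Ifi44 at 2.15, 93.4 and 72.2 CPM. Rsad2 (viperin, which makes a chain-ending nucleotide) was low, with 0 reads, 4.84 CPM and 19.5 CPM, 4.03-fold higher (3.06 to 5.35). Among 28 members with at least 50 CPM in ZOL, Irf9 and Mx2 were the 2 without reads in ZOL+Ang2, beside 4.53% of all genes at that level.

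**Figure D4:**
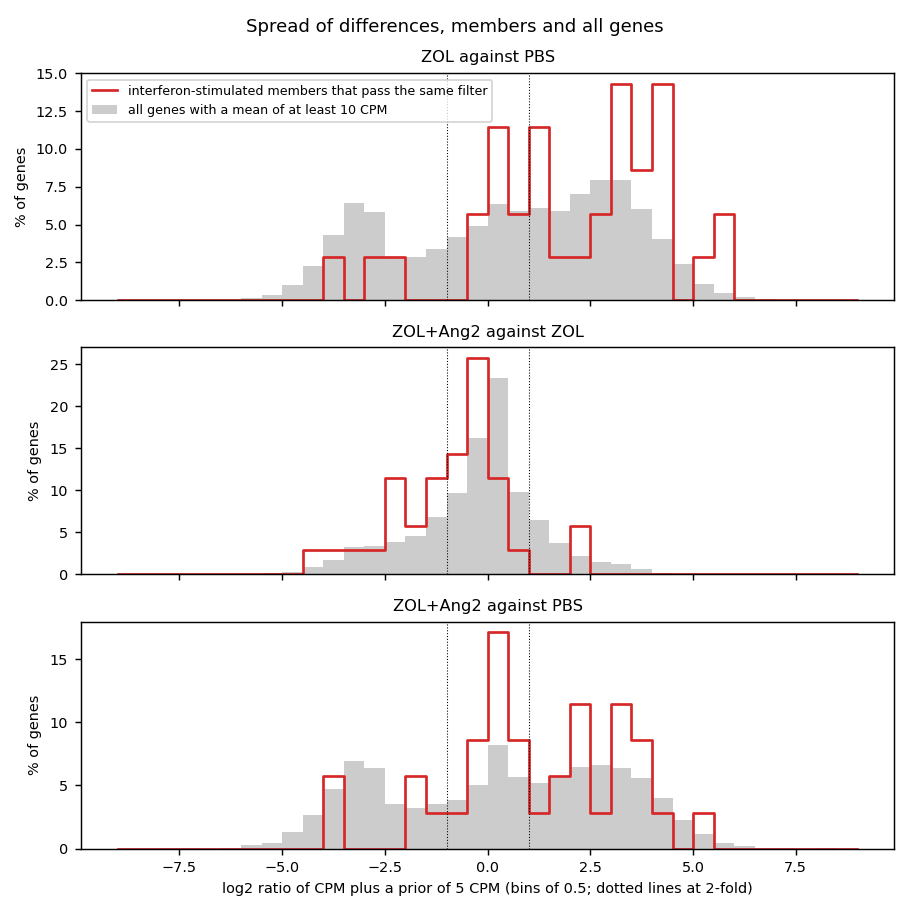
Grey bars give the percentage of all 10942 genes in each bin of the log2 ratio, and red outlines the percentage of the 35 members that pass the same filter. In the ZOL+Ang2 against ZOL panel the members lie more to the left than all genes, and in the ZOL against PBS panel more to the right.

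The rest of the pathway was read from lists of 119 genes that are not members. No interferon gene had reads in ZOL or ZOL+Ang2: of 21 ligand genes, among them Ifnb1 and Ifng, only Ifnz had any, 2 reads in PBS. A count of 0 reads allows up to 0.191 CPM in ZOL by counting error. Of the 6 receptor chains 4 were lower in ZOL+Ang2 than in ZOL and 1 was higher, beside 24.9% and 16.2% of all genes. Ifnar1, a chain of the type I receptor, stood at 15.1, 82.3 and 25.8 CPM (3.19-fold lower than in ZOL, 2.77 to 3.70). Its partner Ifnar2 stood at 115, 55.9 and 16.4 CPM (3.40-fold lower, 2.85 to 4.09). Both chains of that receptor were below ZOL, although Ifnar2 was highest in PBS. Ifngr1, the ligand-binding chain for interferon gamma, had 0 reads, 72.4 CPM and 8.78 CPM (8.24-fold lower, 6.54 to 10.5), whereas Ifngr2 had 0 reads, 49.2 CPM and 61.2 CPM. Il10rb, shared with the type III receptor, had 41.9 CPM in ZOL and 0 reads in PBS and ZOL+Ang2. The specific type III chain Ifnlr1 was the exception, with 0 reads, 5.99 CPM and 27.3 CPM (4.55-fold higher, 3.57 to 5.84).

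Downstream of the receptors, the kinases Jak1 and Jak2 were level between ZOL and ZOL+Ang2. Jak1 stood at 1.61 (3 reads), 195 and 177 CPM, and Jak2 stood at 23.1, 103 and 85.1 CPM. Tyk2 had reads in ZOL alone (17.4 CPM) and did not pass the filter. The feedback inhibitors Socs1 and Socs3 went opposite ways. Socs1 had 0 reads, 9.49 CPM and 64.4 CPM (6.79-fold higher, 5.66 to 8.19). Socs3 stood at 39.3, 240 and 5.24 CPM (45.7-fold lower, 34.2 to 62.6). Ptpn11, a phosphatase, was also lower, and Pias1, Ptpn2 and Ptpn6 lay within 2-fold.

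Of the IRF genes that are not members, Irf3, which induces interferon itself, was higher in ZOL+Ang2, with 0 reads, 5.80 CPM and 132 CPM (22.7-fold higher, 18.3 to 28.4). Irf8, a factor of myeloid cells that endothelium can also express, had 0 reads, 124 CPM and 35.2 CPM (3.53-fold lower, 3.13 to 3.99). Irf5 was lower too, with 24.8 CPM, 7.33 CPM and 0 reads. Irf2 lay within 2-fold, at 1.08, 38.0 and 39.7 CPM, and Irf4 had 30.7 CPM in PBS, 0 reads in ZOL and 3.42 CPM in ZOL+Ang2. Among 13 genes of the steps that induce interferon, 8 passed the filter. Beside 24.9% of all genes, 3 of these 8 were lower. These were Mavs, the adaptor of MDA5 and RIG-I (38.7, 78.7 and 2.17 CPM), Traf3 (16.7 CPM, 64.2 CPM and 0 reads) and the helicase Dhx58 (56.6 CPM in ZOL alone). The adaptor STING, Tmem173 in the files, stood at 1.08, 45.0 and 74.5 CPM, and Tbk1 at 0 reads, 96.6 and 93.4 CPM. With Ifih1 higher and Ddx58, Dhx58 and Mavs lower, the genes of cytoplasmic RNA sensing differed in both directions.

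Most further interferon-stimulated genes lay within 2-fold or were lower. Of 63 listed, 54 passed the filter, 19 were lower in ZOL+Ang2 than in ZOL, 5 were higher and 30 lay within 2-fold, beside 24.9% lower and 16.2% higher among all genes. The lowest were Phf11d (94.8 CPM in ZOL), Znfx1 (84.0), Trim30a (71.9) and Trim21 (54.9), each at 3 reads or fewer in ZOL+Ang2. The highest were Stat3 (124 CPM against 345 with Ang2), Gbp8 (19.6 and 60.9), Parp12 (46.5 and 125) and Apol9b (67.9 and 156). The median log2 ratio of the 54 was -0.56, beside -0.02 for all genes. The antigen-processing genes Psmb8, Psmb9 and Psmb10, at 721, 506 and 553 CPM in ZOL, were among those within 2-fold.

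Markers of several cell types moved between the same libraries. The list of 9 pan-endothelial genes summed to 1225, 1662 and 572 CPM. On deposited RPKM the sums of these genes were 497, 220 and 69.9, so PBS and not ZOL was highest. Beside 24.9% and 16.2% of all genes, 7 of 9 were lower and none higher in ZOL+Ang2 than in ZOL. That is the direction of the 14 lower members. The 7 lymphatic genes, Pdpn included, summed to 275, 170 and 218 CPM, with Flt4 lower and Pdpn higher in ZOL+Ang2 than in ZOL. The 13 leukocyte and myeloid genes summed to 1455, 150 and 2391 CPM, with 3, 4 and 2 of them at 0 reads. Lysozyme (Lyz2) stood at 737, 68.8 and 929 CPM and Ptprc at 156, 25.1 and 76.1 CPM, and Cd68 and Itgam had 0 reads in each library. ZOL was also the lowest library for Ifit1 and Ifih1, for the lymphatic sum and for the erythroid sum given below. The 6 fibroblast genes summed to 343, 454 and 10779 CPM and the 4 epithelial genes to 542, 4650 and 4393 CPM. Lymphocyte genes summed to 290, 0.828 and 0 CPM and 5 erythroid genes to 191, 5.54 and 25141 CPM. The part of these cell types in the differences between members was not tested.

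**Figure D5:**
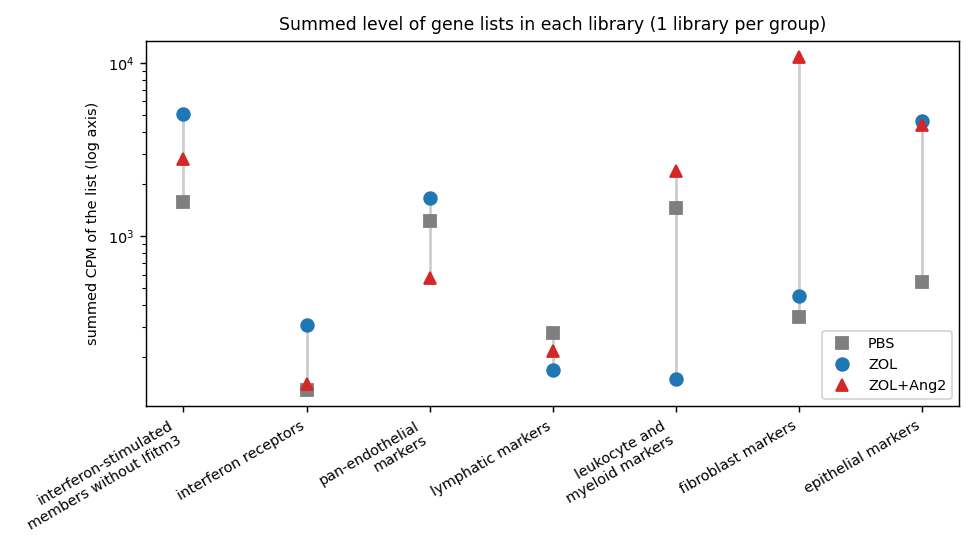
Points are the summed CPM of each list in each library, on a log axis, with 1 library per group. On CPM the members without Ifitm3 sum to 1574, 5056 and 2791, and the receptors and pan-endothelial markers also peak in ZOL. Leukocyte and myeloid markers and lymphatic markers are lowest there. On deposited RPKM, not drawn, receptors sum to 61.6, 54.1 and 26.3 and pan-endothelial markers to 497, 220 and 69.9, highest in PBS. The members without Ifitm3 stay highest in ZOL, at 729, 1088 and 826 RPKM.

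ZOL without Ang2 was set beside PBS. Igtp, Oasl2 and Gbp7 were among the members with the largest ratios in favour of ZOL, and Ifit1, Ifih1 and Oas2 were lower. Of the 35 members that passed the filter, 24 (68.6%) were at least 2-fold higher in ZOL, against 49.2% of all genes, and 3 (8.57%) were lower, against 29.4%. With median-of-ratios scaling these were 19 and 3 of 34, against 37.4% and 41.7% of all genes, because that scaling moved the median of all genes from 0.94 to -0.17. The members' median log2 ratio was 2.59, and it was 2.78 with members at 0 reads set to their bound. The count rests in large part on members with very few PBS reads. Over genes with at least 10 CPM in both libraries, 6 of 16 members (37.5%) were higher, against 31.4% of all genes, and 2 (12.5%) were lower, against 18.7%, shares near the background. There the members' median was 0.65 and that of all genes 0.30. These 6 were Dtx3l, Eif2ak2, Gbp2, Iigp1, Irgm1 and Xaf1, of which Dtx3l and Gbp2 kept the call with median-of-ratios scaling and on deposited RPKM and the others lost it under both.

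Among members with more PBS reads, Gbp2 was 13.7-fold higher in ZOL than in PBS (95% counting interval 11.2 to 16.9, 98 PBS reads), Irgm1 2.80-fold higher (2.47 to 3.19) and Xaf1 2.83-fold higher (2.33 to 3.46). With median-of-ratios scaling Irgm1 and Xaf1 fell within 2-fold, at log2 ratios of 0.60 each, as did Eif2ak2 at 0.89 and Iigp1 at 0.33. On deposited RPKM Eif2ak2 stood at 0.51 and Iigp1 at -0.11. Ifit1 was 6.33-fold lower in ZOL (5.23 to 7.64) and Ifih1 6.78-fold lower (6.03 to 7.61). Against the floor, Oas2 (129 PBS reads, none in ZOL) was at least 363-fold lower. Of all genes with at least 50 CPM in PBS, 18.5% likewise had no reads in ZOL. Igtp was 240-fold higher in ZOL, but from 3 PBS reads, and its interval ran from 81.9 to 1162. Oas1a, Usp18, Parp14, Oas3 and Rsad2 had 0 reads in PBS, and Gbp5 had 0 in both libraries.

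Against PBS, ZOL+Ang2 had 17 of 35 members (48.6%) at least 2-fold higher, beside 44.2% of all genes, and 5 (14.3%) lower, beside 33.1%. The lower members were Irf1, Irf9, Mx2, Oas2 and Parp9. With median-of-ratios scaling 8 members were lower, and on deposited RPKM 12. For ZOL against PBS, median-of-ratios scaling moved the share of all genes lower from 29.4% to 41.7%. Shares of all genes under these settings are not given for ZOL+Ang2 against PBS, so the rise is not a result about the members. On CPM Ifit1 (106 and 108), Ifih1 (281 and 204) and Isg15 (23.7 and 24.5) lay within 2-fold. So did Irgm1 (137 and 154) and Xaf1 (57.6 and 58.1). On deposited RPKM each of these genes was lower in ZOL+Ang2 than in PBS. Ifih1 stood at 57.2 and 18.7 RPKM, Ifit1 at 66.2 and 30.5, Isg15 at 52.0 and 24.2 and Xaf1 at 20.4 and 9.27. Over genes with at least 10 CPM in both libraries, 1 of 14 members (7.14%) was higher, beside 32.3% of all genes, and 2 (14.3%) were lower, beside 19.9%. Any 2 of the 3 comparisons share a library and are not independent. Ifit1 and Ifih1 were at least 2-fold lower in ZOL than in either other library.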

How the data were processed

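The authors deposited 1 RPKM value for each gene and library, scaled by exon length and by a library total that they do not define in the labels. The tools were HISAT2 2.2.1, featureCounts 2.0.6 and fastp on mm10, per the submitters' processing notes. Annotation release, strand setting and handling of multi-mapping reads: not given in the sources used here. Extracted RNA was amplified at full length with a single-cell kit, per the labels' protocols, with no molecular identifiers stated. Groups came from the treatment label.

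Reads were recovered as whole multiples of 1 step per library from RPKM and GENCODE M21 exon lengths. With a tolerance of 0.01, 96.9%, 96.2% and 96.1% of values above 0 came out whole in PBS, ZOL and ZOL+Ang2. The recovered reads came to 1.50, 0.701 and 0.785 times the totals that the steps imply, so they may not be the authors' counts. For 37 genes no exon length was found and they were left out. CPM used TMM factors (1.11, 0.946 and 0.953, trims of 30% and 5%). Levels of different genes were compared as deposited RPKM and libraries as CPM. Genes whose mean reached 10 CPM were compared by the log2 ratio with a prior of 5 CPM, and a named gene's fold is the ratio without the prior, with a 95% interval from the exact binomial (Clopper-Pearson) for the split of the gene's reads. Genes at 0 reads were set against a floor of 3 reads, and such a bound leaves out the counting error of the other library's reads. The steps were tested on simulated data. Python 3.11.15, numpy 2.4.6 and scipy 1.17.1 were used.

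Every member is accounted for. Values are given for members past 2-fold in ZOL+Ang2 against ZOL, the 10 highest by RPKM and those going opposite ways, and for the rest by role. Printed promoters are those of the highest and lowest members, among those past the 10 CPM filter, that hold each motif. The members, lists and tests were chosen with earlier results of these data known. The alternatives were other scaling factors, totals without mitochondrially encoded, ribosomal RNA, satellite-type and chemoreceptor models, deposited RPKM, a prior of 1 CPM and filters at 1 and 50 CPM. Chosen after seeing the data were 10 CPM in both libraries and PBS left out. Some genes of the pathway are not reported here.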

Additional observations from a re-analysis of the deposited data

How the results depend on the processing

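No paired analysis was possible because each group is 1 library, and no replicate could be left out. In ZOL+Ang2 against ZOL the members' median relative to all genes was -0.66 and stayed between -0.72 and -0.45, and the count of lower members moved past 1.5 times its 14 only with the filter at 50 CPM (8 of 22 members, fewer genes tested). The count of higher members was 4 in place of 2 with the filter at 1 CPM, which let in Gbp5 and Rsad2. In ZOL against PBS the median relative to all genes, 1.65, became 2.42 with median-of-ratios factors, 2.46 on deposited RPKM, 2.34 with a prior of 1 CPM, 0.79 with the filter at 50 CPM and 0.35 with 10 CPM in both libraries. The count of 24 higher members became 14 and 6 under the latter settings, and that of 3 lower members became 6 on RPKM. On RPKM Iigp1 lost its higher call and changed sign, to -0.11 on the log2 scale. Ifitm3, Bst2, Irf1, Ifit3, Trim25 and Mx2 were also higher in ZOL than in PBS on CPM and lower on RPKM. CPM and RPKM rest on different library totals, so the change of unit moves the plain ratio of ZOL to PBS by a common factor. These changes of sign are therefore not particular to a gene. In ZOL+Ang2 against PBS the median, 0.43, became 1.27 on RPKM, 1.14 with the filter at 1 CPM, -0.14 at 50 CPM and -0.32 with 10 CPM in both libraries, a reversed sign under the last pair. The 17 higher members became 11 at 50 CPM and 1 with 10 CPM in both, and the 5 lower became 8 with median-of-ratios factors, 12 on RPKM, 2 at 50 CPM and 2 with 10 CPM in both. Shares of all genes on RPKM are not given, nor those under median-of-ratios factors for ZOL+Ang2 against PBS. Depth limits PBS most, where 3 reads come to 1.61 CPM.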
